A study of Homo sapiens with 4 samples.

Results

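The zinc finger genes of the terminal 19q13.43 cluster lie side by side near the end of the long arm of chromosome 19. They were taken as the rows of the deposited table whose gene symbol was on a list of 54 symbols. The list names genes by their place and uses no measured value, but it was drawn up with earlier results of these data known. Of these 54 genes, 52 were listed in the table of 18806 genes, and ZNF773 and ZNF530 were not analysed here. On GRCh38 with the GENCODE release 44 annotation, the 52 genes run from ZNF581 (chromosome 19, 55635459 to 55645623) to ZNF324 (58467056 to 58475436), with 32 on the plus and 20 on the minus strand. All but ZNF581 begin within the stretch that opens with ZNF582 at 56375846. RNA-seq was made from Huh7, an established hepatocellular carcinoma line. Cells of a single Cas9-carrying clone received a non-targeting guide (sgNS, labelled wild type, 2 libraries) or a METTL16 guide (METTL16 KO, 2 libraries) from a lentivirus and were selected with hygromycin B to give stable lines. Both groups thus carry Cas9, the virus and the selection. METTL16 is a methyltransferase that places m6A on RNA, and the labels call the second group a METTL16 knockdown while the study calls it a KO. The study's methods call the 2 libraries of a group biological replicates. Neither they nor the labels say that these came from separate infections or cultures, so p-values measure the spread between libraries, which may be technical.

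Most of these genes encode KRAB zinc finger proteins. A row of C2H2 fingers, each folded around a zinc ion, reads DNA, and the KRAB domain at the other end binds the corepressor TRIM28 (KAP1). TRIM28 in turn brings in the histone methyltransferase SETDB1 and heterochromatin protein 1, which silence the bound DNA, for many members of the family a transposable element. The family grew by tandem duplication, and chromosome 19 holds its largest clusters. Many promoters of this cluster are known to gain DNA methylation in tumours, among them those of ZNF154, ZNF471, ZNF582, ZNF671 and ZSCAN18. A smaller group carries a SCAN domain, which pairs proteins with each other.

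METTL16 itself had 26.3 and 25.1 TPM (transcript abundance per length, scaled to one sum per library) in sgNS against 17.6 and 18.8 TPM in METTL16 KO. Its log2 fold change, METTL16 KO minus sgNS, was -0.50 ± 0.06 (SE, limma, adjusted p = 2.4e-05), and its RNA was still measured in both METTL16 KO libraries. All 8 hepatocyte markers were listed, at 160 to 10387 TPM, and on the deposited scale all passed the test: ALB, AFP, APOA1, TTR, SERPINA1 and HNF4A were higher in METTL16 KO (log2 fold changes of 0.17 for SERPINA1 to 2.54 for AFP), and APOB (-0.17) and TF (-0.43) were lower. Of 10 markers of leukocytes, fibroblasts and endothelium, the highest library value was 5.14 TPM (PECAM1) and 6 were under 1 TPM in every library, CDH5 and VWF at or near 0. The sum of those 10 was 9.15 and 8.40 TPM in sgNS against 8.45 and 7.13 TPM in METTL16 KO, with PECAM1 (-0.75) and PDGFRB (-0.67) lower and CD14 (0.59) higher (adjusted p = 0.00025, 0.025 and 0.028). Their part in the changes of the cluster was not tested. Read counts cannot be had from TPM. The depth behind each value is unknown, and no interval of counting error is given.

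The cluster as a whole was higher in METTL16 KO. Its 52 listed genes summed to 661 and 656 TPM in the sgNS libraries and to 894 and 875 TPM in the METTL16 KO libraries. The log2 ratio of the group means was 0.43, beside 0.39 for the sum over the 486 other zinc finger genes of the table. In bulk RNA, fewer cells with a transcript and less transcript per cell cannot be told apart. Of the 52 genes, 44 had a mean of at least 1 TPM over the 4 libraries and were tested, and 8 were not. No tested gene owed its place to 1 group alone, since none had a group mean under 1 TPM in either group. Their mean levels ran from 1.12 to 91.4 TPM, with a median of 14.3 TPM against 24.5 TPM over all genes tested.

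**Figure D1:**
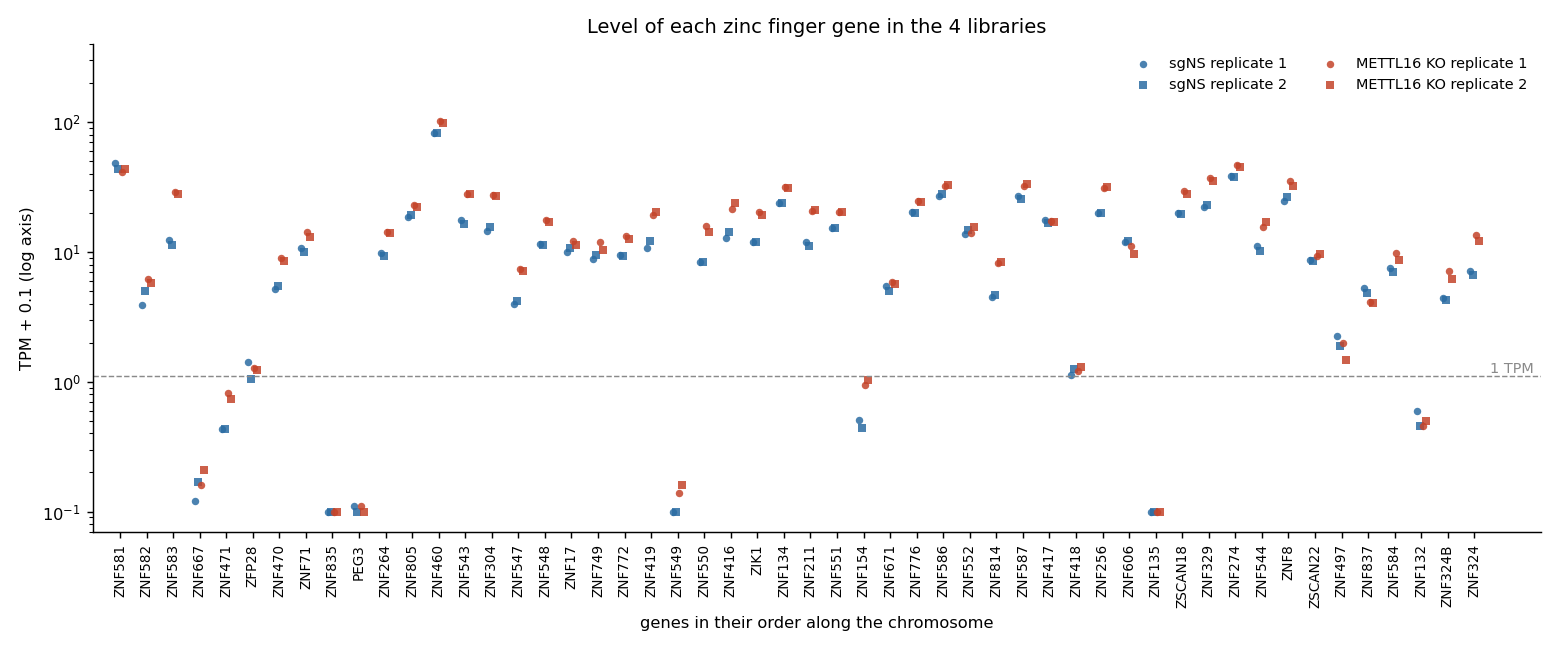
Level of each of the 52 listed genes in each library, as TPM + 0.1 on a log axis, with genes in their order along the chromosome. Blue points are the 2 sgNS and red points the 2 METTL16 KO libraries, and the dashed line marks 1 TPM. The 8 genes with a mean under the line were not tested, and the red points lie above the blue ones for 36 of the 44 genes tested.

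Of the 44 genes tested, 33 rose in METTL16 KO at a limma adjusted p under 0.05 and 2 fell. Over all 11971 genes tested, 50.1% rose and 25.6% fell at the same threshold, so the share of 75% for the cluster stood above the background and the share of 4.55% lower stood under it. The remaining 9 genes did not pass. Both METTL16 KO libraries lay above both sgNS libraries for 36 of the 44 genes (background 56.8%), both lay below for 3 (background 30.7%), and the groups overlapped for 5. The changes were small. The median log2 fold change over the 44 genes was 0.41 (interquartile range 0.23 to 0.72, range -0.30 to 1.26), against 0.16 over all genes tested. With a log2 fold change of at least 1 and an unadjusted p under 0.01, 1 gene of the cluster was higher and 0 were lower in limma (2 were lower at an unadjusted p under 0.05, by less), where 7.69% and 3.75% of all genes passed that rule. The values of the other zinc finger genes were close to these: of 408 tested, 276 rose and 27 fell, and their median was 0.40. A difference between the cluster and those genes was not tested.

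The centre of the scale mattered for these counts. TPM forces every library to the same sum, and the median log2 fold change over all genes tested was 0.16 with the values as deposited, -0.0024 after median-ratio scaling and 0.01 after quantile normalization. After median-ratio scaling 26 genes of the cluster rose and 4 fell, beside 36.4% and 36.6% of all genes, and the median of the cluster was 0.25. Under the deposited, median-ratio and quantile scales alike, 25 genes of the cluster were higher (background 34.8%) and 2 were lower (background 25.3%). The fold changes below are on the deposited scale, and 5 genes change sign between the scales: ZFP28, ZNF418, ZNF552, ZNF671 and ZSCAN22, none of which passed the test on any of the 3.

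**Figure D2:**
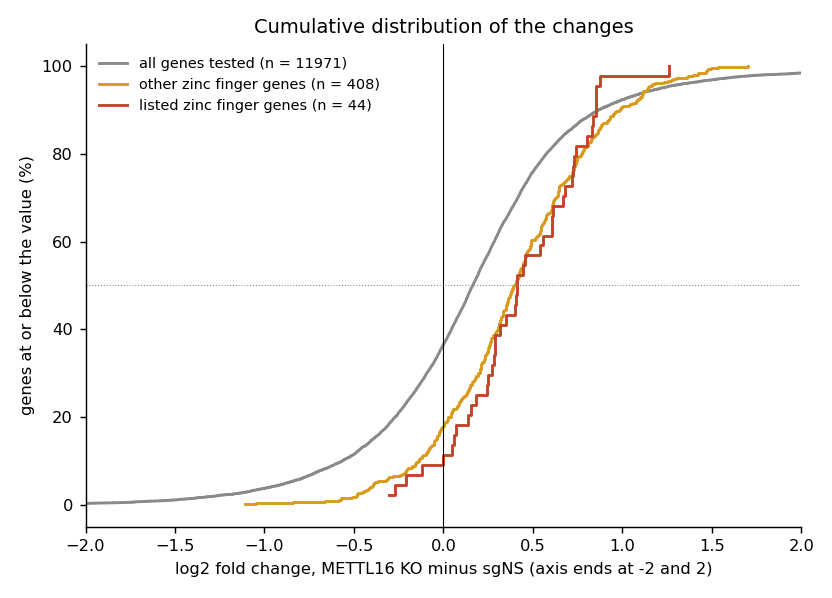
Cumulative distribution of the log2 fold change, METTL16 KO minus sgNS, with the percentage of genes at or below each value on the vertical axis. The line of the 44 genes of the cluster runs close to that of the 408 other zinc finger genes, with medians of 0.41 and 0.40, and to the right of the grey line of all 11971 genes tested, whose median was 0.16.

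The gene that changed most was ZNF583, a KRAB protein with 12 fingers (chromosome 19, 56397966 to 56436035, plus strand). ZNF583 had 12.2 and 11.2 TPM in sgNS against 28.8 and 27.7 TPM in METTL16 KO, a ratio of 2.41. Its log2 fold change was 1.26 ± 0.07 (SE, limma, adjusted p = 3.2e-08), and 1.10 after median-ratio scaling. It was the member past the fold rule, and its groups did not overlap. The next largest rises had log2 fold changes of 0.72 to 0.88, and the groups did not overlap for any of them.

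ZNF324 had 7.08 and 6.60 TPM in sgNS against 13.3 and 11.95 TPM in METTL16 KO (log2 fold change 0.88 ± 0.09, limma, adjusted p = 4.5e-06). ZNF304, a KRAB protein with 15 fingers, went from 14.5 and 15.5 TPM to 27.4 and 27.0 TPM (0.85 ± 0.06, adjusted p = 3.9e-07). ZNF814, with 23 fingers the longest finger array of the cluster, went from 4.39 and 4.56 TPM to 8.06 and 8.27 TPM (0.85 ± 0.09, adjusted p = 1e-05). These 3 genes lie in different places of the stretch, and differences between their rises were not tested. ZNF211 went from 11.8 and 11.0 TPM to 20.5 and 20.9 TPM (0.85 ± 0.07, adjusted p = 7.1e-07). ZNF550 went from 8.32 and 8.29 TPM to 15.7 and 14.2 TPM (0.84 ± 0.08, adjusted p = 2.6e-06). ZNF547, at a low level, went from 3.86 and 4.08 TPM to 7.23 and 7.05 TPM (0.83 ± 0.10, adjusted p = 2.1e-05). In each of these 6 genes both METTL16 KO libraries lay above both sgNS libraries.

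ZNF419, the source of a minor histocompatibility antigen of renal carcinoma, had 10.6 and 11.9 TPM in sgNS against 19.2 and 20.3 TPM in METTL16 KO (log2 fold change 0.80 ± 0.08, limma, adjusted p = 3e-06). ZNF416 went from 12.7 and 14.2 TPM to 21.4 and 23.8 TPM (0.74 ± 0.08, adjusted p = 7.3e-06). ZIK1, named for its binding to the RNA-binding protein hnRNP K, went from 11.8 and 11.8 TPM to 20.1 and 19.2 TPM (0.73 ± 0.07, adjusted p = 2e-06). By their GENCODE bounds, ZNF416 and ZIK1 overlap over 456 bases on opposite strands, and a difference between their changes was not tested. ZNF470 went from 5.05 and 5.38 TPM to 8.91 and 8.44 TPM (0.72 ± 0.09, adjusted p = 3.2e-05). ZNF543 went from 17.6 and 16.3 TPM to 27.9 and 27.9 TPM (0.72 ± 0.06, adjusted p = 1.4e-06). All 12 of these genes encode a KRAB domain, and each was called higher in the main test and in all 12 alternative settings.

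Among the cluster's 42 listed genes with a KRAB domain and no SCAN domain, 36 were tested. Of these, 29 rose and 1 fell, and their median log2 fold change was 0.45 (over all genes tested, 50.1% rose, 25.6% fell and the median was 0.16). Beyond the 12 genes above, 17 rose: ZNF256 by 0.67, ZNF324B by 0.61, ZNF544 and ZNF548 by 0.60 each and ZNF264 by 0.56 at the upper end, and ZNF776 by 0.28, ZNF805 by 0.25 and ZNF586 by 0.24 at the lower. ZNF772, ZNF551, ZNF71, ZNF8, ZNF584, ZNF749, ZNF582 and ZNF587 lay between. ZNF582 had 3.82 and 4.88 TPM in sgNS against 6.12 and 5.69 TPM in METTL16 KO. Its log2 fold change of 0.44 fell to 0.27 without sgNS replicate 1, where its call was lost. The calls of ZNF582, ZNF749, ZNF805 and ZNF584 were lost without METTL16 KO replicate 1, where ZNF749 went from 0.29 to 0.18, and that of ZNF749 was lost without sgNS replicate 1 as well. Both ZNF582 and ZNF749 also missed the threshold in a fit of all genes above 0 in at least 1 library (adjusted p = 0.055 and 0.064). ZNF460 had the highest level of the cluster, 82.6 and 82.0 TPM in sgNS against 102.5 and 98.4 TPM in METTL16 KO, with a log2 fold change of 0.29 ± 0.04 (adjusted p = 7.2e-05). It was still called higher after median-ratio scaling and quantile normalization, at 0.12 and 0.15. After median-ratio scaling 23 of these 36 genes rose and 2 fell, beside 36.4% and 36.6% of all genes. The calls of ZNF582, ZNF584, ZNF586, ZNF749, ZNF776 and ZNF805 were lost on both other scales. After median-ratio scaling their log2 fold changes were 0.28, 0.19, 0.076, 0.13, 0.12 and 0.084 in that order. ZNF587 missed the threshold after quantile normalization alone (adjusted p = 0.053).

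The KRAB gene that fell was ZNF606, at 11.8 and 11.96 TPM in sgNS against 10.9 and 9.61 TPM in METTL16 KO (log2 fold change -0.21 ± 0.08, limma, adjusted p = 0.040). Its groups did not overlap, but the call was lost on leaving out either sgNS library or METTL16 KO replicate 2. Without METTL16 KO replicate 2 the log2 fold change was -0.11. The call was also lost in limma without trend (adjusted p = 0.064) and with all genes above 0 in at least 1 library (adjusted p = 0.095). ZNF417, ZNF418, ZNF552, ZNF671, ZNF17 and ZFP28 did not pass the test. Their log2 fold changes lay between -0.0033 for ZNF417 and 0.18 for ZNF17, whose adjusted p was 0.056. Without sgNS replicate 2, which leaves 1 sgNS library, the log2 fold change of ZNF17 was 0.23. ZNF417 was called lower after median-ratio scaling (-0.17, adjusted p = 0.034) and after quantile normalization (-0.19, adjusted p = 0.018). ZNF418, at 1.03 and 1.16 TPM against 1.12 and 1.19 TPM, and ZFP28, at 1.31 and 0.95 TPM against 1.18 and 1.14 TPM, were the tested KRAB genes with the lowest levels, and their groups overlapped. Of the 4 genes at 1 to 5 TPM on average, 0 rose in limma, also at an unadjusted p under 0.05, and of the 40 above 5 TPM, 33 rose. Over all genes tested, 40.8% of those at 1 to 5 TPM and 51.8% of those above 5 TPM rose.

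The SCAN genes are ZSCAN18, ZNF274, ZSCAN22 and PEG3, and the first 3 were tested. ZSCAN18 had 19.9 and 19.4 TPM in sgNS against 29.4 and 27.8 TPM in METTL16 KO (log2 fold change 0.54 ± 0.06, limma, adjusted p = 8.6e-06). ZNF274, a protein with both SCAN and KRAB domains that is known to bring SETDB1 to the 3' ends of zinc finger genes, had 38.2 and 37.9 TPM in sgNS against 46.3 and 45.4 TPM in METTL16 KO (0.27 ± 0.05, adjusted p = 0.00034). ZSCAN22 had a log2 fold change of 0.15 and did not pass (adjusted p = 0.11), but it was called higher in limma without trend (adjusted p = 0.042). The rise of ZNF274 missed the threshold after median-ratio scaling (0.105, limma, adjusted p = 0.063). It was still called higher after quantile normalization (0.123, adjusted p = 0.036).

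Of the 6 listed genes in which neither domain was found, 5 were tested, and they moved in both directions with a median of -0.12. ZNF329 went from 22.1 and 22.8 TPM to 36.8 and 35.1 TPM (log2 fold change 0.68 ± 0.05, limma, adjusted p = 8.7e-07). ZNF134 rose by 0.41 from 23.6 and 23.6 TPM to 31.5 and 31.2 TPM. ZNF837 fell from 5.17 and 4.73 TPM to 4.03 and 3.94 TPM (-0.30 ± 0.11, adjusted p = 0.028). That call was lost without sgNS replicate 1 or without either METTL16 KO library. It was also lost in the limma fit of all genes above 0 in at least 1 library (adjusted p = 0.054). ZNF581 was at 48.3 and 43.8 TPM against 41.3 and 43.3 TPM (-0.12, adjusted p = 0.078), and after median-ratio scaling it was called lower at -0.29 (adjusted p = 0.0011). Without sgNS replicate 1 its log2 fold change was -0.05, and without sgNS replicate 2 it was -0.19. ZNF497 was at 2.16 and 1.78 TPM against 1.90 and 1.36 TPM and its groups overlapped (-0.27, adjusted p = 0.25), and it was called lower after quantile normalization alone (-0.63, adjusted p = 0.028). Its value was -0.04 without METTL16 KO replicate 2 and -0.50 without METTL16 KO replicate 1. ZNF837 and ZNF497 lie next to each other on the minus strand.

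Along the chromosome, the tested genes were split into 4 blocks of 11 neighbours. The block from ZNF547 to ZNF211 had the highest median log2 fold change, 0.73, and 10 of its 11 genes rose. The block before it (ZNF581 to ZNF304) had a median of 0.44 with 9 higher, the one after it (ZNF551 to ZNF606) 0.24 with 6 higher and 1 lower, and the last (ZSCAN18 to ZNF324) 0.40 with 8 higher and 1 lower. Against 50.1% higher and a median of 0.16 over all genes tested, the block from ZNF551 to ZNF606, with 54.5% higher, was near the background. The stretch also holds 21 listed genes with no zinc finger symbol, of which 9 were tested, 2 rose and 1 fell, with a median of 0.18. U2AF2, the large subunit of the U2 auxiliary splicing factor, rose by 0.62, and EPN1, an endocytic adaptor, by 0.40. A1BG, which encodes a plasma glycoprotein made by hepatocytes, fell from 14.4 and 14.1 TPM to 7.65 and 6.39 TPM (log2 fold change -1.02 ± 0.09, limma, adjusted p = 2.4e-06), between ZSCAN22 and ZNF497. Of 6 tested zinc finger genes of the stretch that are not on the list, ZNF580 rose by 0.56 and ZNF587B by 0.21, and ZNF444 fell by 0.49. ZNF787, ZSCAN5A and ZNF446 did not pass, and the median of the 6 was 0.11, under that of all genes tested.

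**Figure D3:**
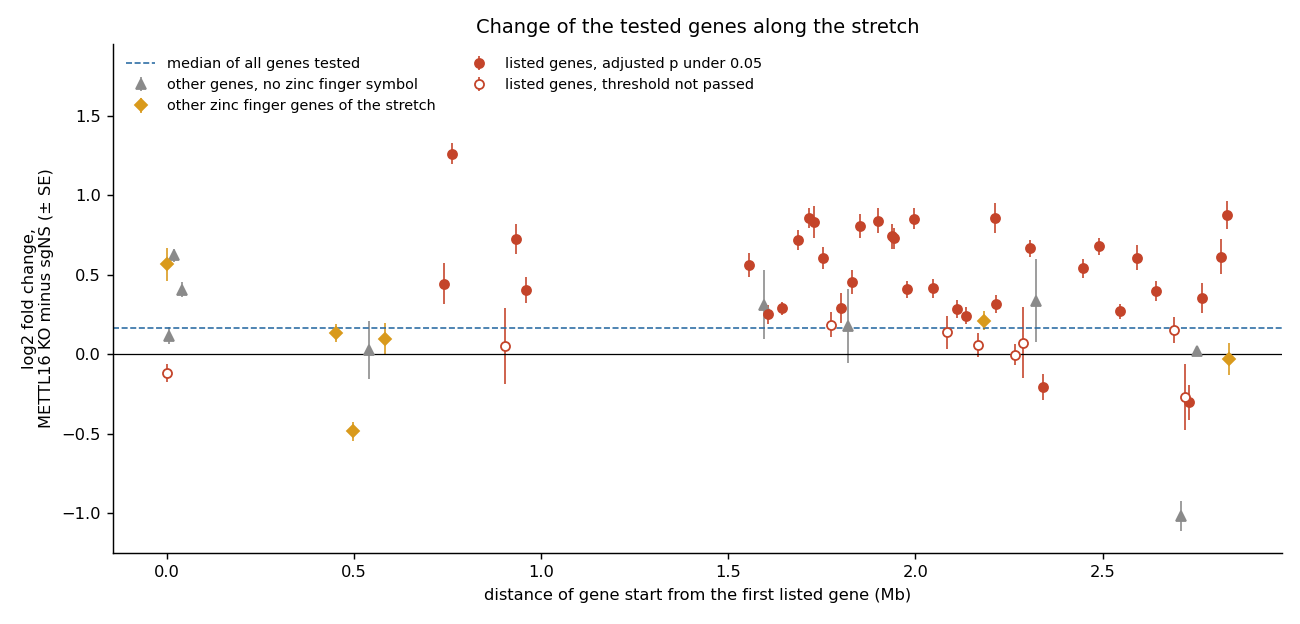
Log2 fold change, METTL16 KO minus sgNS, with its SE, against the distance of each gene's start from the start of ZNF581 in Mb. Filled red circles are genes of the cluster with an adjusted p under 0.05 and open circles those that did not pass, grey triangles and yellow diamonds are other genes of the stretch, and the dashed line is the median of all genes tested, 0.16. Most filled circles lie above the dashed line, the 11 genes from ZNF547 to ZNF211, filled and open, range from 0.18 to 0.85 with a median of 0.73, and ZNF583 is highest at 1.26.

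A gene group born by duplication can share reads, so the closest pairs were set side by side. The proteins of ZNF587 and ZNF417, which are known to bind and repress HERV-K elements, are 98.1% identical over the shorter one. ZNF587 had 27.1 and 25.4 TPM in sgNS against 32.2 and 33.0 TPM in METTL16 KO (log2 fold change 0.31, limma, adjusted p = 0.00039), while ZNF417 was at 17.6 and 16.6 TPM against 17.4 and 16.8 TPM. Of the 100-base windows of their transcripts, 14.7% for ZNF587 and 21.7% for ZNF417 occur in the other gene, so the split of reads between them is uncertain. Their sum was 44.7 and 42.0 TPM in sgNS against 49.6 and 49.8 TPM in METTL16 KO, a log2 ratio of 0.20. ZNF324 and ZNF324B are 86.4% identical. Of the windows of ZNF324, 33.0% occur in other genes, and 26.7% occur in its neighbour ZNF446. Of the windows of ZNF324B, 10.9% occur in ZNF324. Windows shared with other genes made up 10.5% of ZNF552 (9.81% with ZNF814) and 4.33% of ZNF814. The levels of these 4 genes are uncertain as well. ZNF324B was at 4.30 and 4.19 TPM against 7.08 and 6.05 TPM. ZNF264 and ZNF805 are 85.3% identical and share no such window. ZNF264 was at 9.74 and 9.23 TPM against 14.2 and 13.8 TPM, and ZNF805 at 18.6 and 19.3 TPM against 23 and 22.02 TPM. ZNF419 is 89.4% identical to ZNF773, and 5.79% of the windows of ZNF773 occur in ZNF419. ZNF773 is not in the table, so it was not among the genes whose transcripts were searched, and reads shared with it could also bear on the level of ZNF419. No window of 44 of the 52 listed genes, ZNF419 among them, occurs in another gene of the table.

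In 6 pairs, genes of the cluster overlap on opposite strands by their GENCODE bounds, introns included. How far their transcripts overlap was not measured. The kit marks strand, but whether the counting used it is not given in the sources used here. Reads from bases that both transcripts of a pair hold may thus not be told apart. The bounds of ZNF550 and ZNF549 overlap over 22286 bases, while their canonical transcripts have 6587 and 4090 bases. ZNF549 had 0 and 0 TPM in sgNS against 0.04 and 0.06 TPM in METTL16 KO beside 8.29 to 15.7 TPM for ZNF550. ZNF135 was listed at 0 in all libraries beside its overlapping neighbour ZSCAN18. ZNF586 and ZNF552, ZNF551 and ZNF154, ZNF814 and ZNF587, and ZNF416 and ZIK1 are the other pairs. With the RefSeq start of ZIK1, at 57584145, ZIK1 would lie beyond ZNF416, which ends at 57578911.

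The 8 genes that were not tested had a mean of at most 0.635 TPM. PEG3, an imprinted gene expressed from the paternal copy, was listed at 0.01, 0, 0.01 and 0 TPM in sgNS replicates 1 and 2 and METTL16 KO replicates 1 and 2. ZNF135 and ZNF835 were listed at 0 in every library, and ZNF667 at 0.02, 0.07, 0.06 and 0.11 TPM. ZNF132, whose promoter is known to be methylated in prostate tumours, had 0.50 and 0.36 TPM in sgNS against 0.36 and 0.40 TPM in METTL16 KO. These values show little or no transcript in either group. The next values of low genes were higher in METTL16 KO. ZNF154 had 0.41 and 0.34 TPM in sgNS against 0.85 and 0.94 TPM in METTL16 KO, and ZNF471 at 0.33 and 0.33 TPM against 0.72 and 0.64 TPM. The groups did not overlap for either gene. In a fit of all 16350 genes above 0 in at least 1 library, the log2 fold change of ZNF154 was 1.07 (limma, adjusted p = 0.0077) and that of ZNF471 was 0.86 (adjusted p = 0.014), while ZNF667 and ZNF132 did not pass (adjusted p = 0.35 and 0.65). ZNF549, above 0 in METTL16 KO alone, entered that fit only through that group, so no test of it is given.

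Promoters of the cluster share letters that the list of genes did not use. RefSeq gives a window from 250 bases before to 50 after the gene's start for 46 of the 52 genes (GRCh38.p14). The start is that of RefSeq, which can differ from the GENCODE gene bounds given above: the RefSeq starts of ZNF583 and ZIK1 lie 6048 and 5689 bases inside the GENCODE genes. The 250 bases before the start are shown for ZNF583, the gene that changed most, for ZNF324, which had the next largest rise, and for ZNF814, ZNF419 and ZIK1, which rose and hold both motifs described here. They are chr19:56403764-56404013 (plus strand), chr19:58466830-58467079 (plus), chr19:57889038-57889287 (minus), chr19:57487500-57487749 (plus) and chr19:57583895-57584144 (plus). Capitals mark the core bound by ETS factors, CCGGAAG or its complement CTTCCGG, and the letters ACTACA followed 3 bases later by CCC, a part of the element bound by ZNF143.
ZNF583: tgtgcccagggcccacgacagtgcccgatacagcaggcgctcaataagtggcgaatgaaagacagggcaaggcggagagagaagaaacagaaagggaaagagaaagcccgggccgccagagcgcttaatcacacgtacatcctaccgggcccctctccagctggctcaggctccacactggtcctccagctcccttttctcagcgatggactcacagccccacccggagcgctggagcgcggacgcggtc
ZNF324: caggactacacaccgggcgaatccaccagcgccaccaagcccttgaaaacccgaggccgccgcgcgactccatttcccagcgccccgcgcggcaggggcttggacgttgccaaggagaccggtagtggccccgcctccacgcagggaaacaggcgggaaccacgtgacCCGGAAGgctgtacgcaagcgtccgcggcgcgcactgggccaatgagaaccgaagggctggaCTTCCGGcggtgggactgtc
ZNF814: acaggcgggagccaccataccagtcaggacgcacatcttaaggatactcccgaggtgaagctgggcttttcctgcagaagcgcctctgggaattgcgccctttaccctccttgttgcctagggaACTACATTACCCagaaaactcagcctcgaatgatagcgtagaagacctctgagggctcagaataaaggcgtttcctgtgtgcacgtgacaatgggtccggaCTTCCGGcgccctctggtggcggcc
ZNF419: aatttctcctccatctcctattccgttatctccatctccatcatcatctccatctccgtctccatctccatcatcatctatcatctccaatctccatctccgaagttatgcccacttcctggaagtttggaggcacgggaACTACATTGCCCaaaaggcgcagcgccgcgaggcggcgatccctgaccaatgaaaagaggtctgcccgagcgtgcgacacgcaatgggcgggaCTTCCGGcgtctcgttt
ZIK1: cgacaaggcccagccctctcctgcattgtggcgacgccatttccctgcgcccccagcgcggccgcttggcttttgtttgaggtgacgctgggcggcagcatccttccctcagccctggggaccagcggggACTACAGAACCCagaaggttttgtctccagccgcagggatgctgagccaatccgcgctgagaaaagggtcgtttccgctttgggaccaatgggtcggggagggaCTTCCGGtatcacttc

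The last capitals of ZNF324, ZNF814, ZNF419 and ZIK1 are the ETS core, which begins 20, 25, 17 and 16 bases before the start. ZNF583 holds neither motif in its window. Over the whole windows and both strands, the ETS core CCGGAAG was found in 28 of 46 genes of the cluster (60.9%), in 37.2% of 401 other zinc finger genes and in 14.4% of all 14688 genes of the table with a window. In 19 of the 28 it lay wholly within 100 bases before the start. These ZNF143 letters, searched after the sequences had been read, were found in 18 genes of the cluster (39.1%), in 13.7% of the other zinc finger genes and in 3.53% of all genes. The CCAAT box, CCAAT, was found in 58.7% of the cluster and 36.5% of all genes, and the GC box, GGGCGG, in 65.2% and 59.6%. The TATA letters TATAAA were found in 1 gene of the cluster (2.17%, against 9.46%). Genes that arose by duplication share sequence and are not independent, so no test was made of these shares, and a match is not evidence of binding.

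Genes with and without the ETS core rose, as did genes with and without the ZNF143 letters. The other motifs were not split in this way. Of 26 tested genes with an ETS core, 23 rose and 1 fell (median log2 fold change 0.50), and of 14 without it 9 rose and 1 fell (median 0.40). These are 88.5% and 64.3% higher, beside 67.6% of the other zinc finger genes and 50.1% of all genes tested, whose median was 0.16. The 4 tested genes with no window are in neither group, and of these 1 rose and 0 fell (median 0.05). With the ZNF143 letters, 12 of 16 rose and 1 fell (median 0.33), and without them 20 of 24 rose and 1 fell (median 0.55). CpG pairs numbered 11 to 42 per window, with a median of 22.5 in the cluster, 22 in the other zinc finger genes and 23 in all genes. The 40 tested genes with a window had a median of 21.5 and the 6 untested ones 27. Across the 40 genes, which share libraries and a common origin, Spearman's rho between CpG number and log2 fold change was 0.14. Over the 44 genes tested it was 0.10 for the mean level and 0.13 for the number of fingers, which ran from 2 to 23 with a median of 12.

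**Figure D4:**
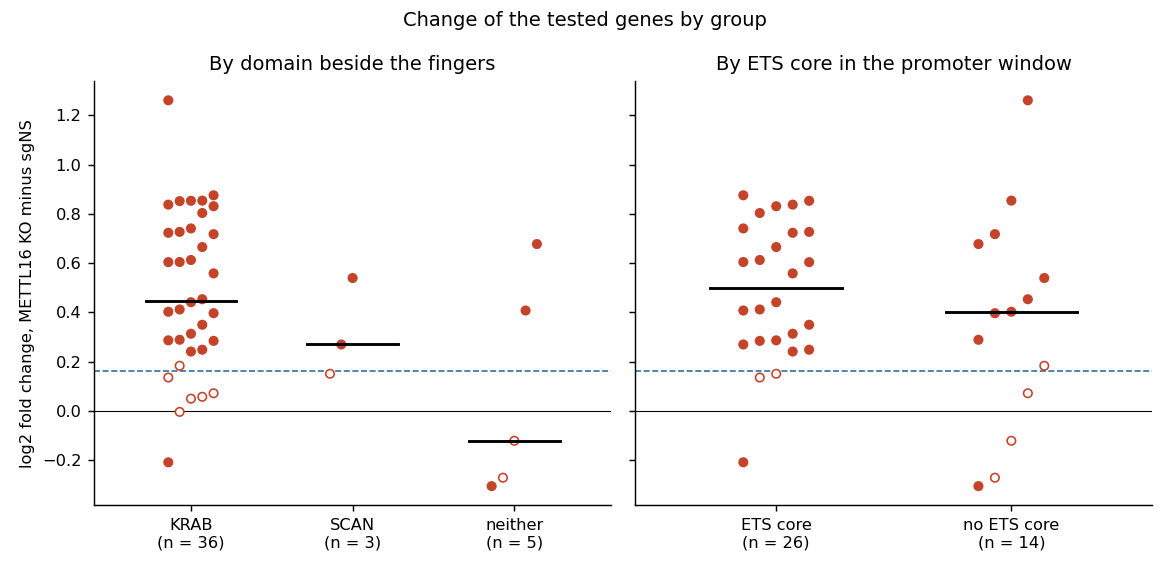
Log2 fold change, METTL16 KO minus sgNS, of the tested genes by the domain found beside the fingers (left: 36 KRAB, 3 SCAN, 5 neither) and by the ETS core in the promoter window (right: 26 with, 14 without, 4 genes had no window). Filled points passed an adjusted p of 0.05, black bars are medians and the dashed line is the median of all genes tested. The medians were 0.45, 0.27 and -0.12 on the left and 0.50 and 0.40 on the right.

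The partners of KRAB proteins were measured in the same libraries. TRIM28 lies 68628 bases beyond the end of ZNF324 and had 375 and 356 TPM in sgNS against 333 and 321 TPM in METTL16 KO (log2 fold change -0.16 ± 0.04, limma, adjusted p = 0.0020). SETDB1 was at 26.4 and 25.5 TPM against 31.2 and 32.4 TPM (0.29 ± 0.05, adjusted p = 0.00053). Of 24 corepressor and heterochromatin genes tested, 9 rose and 6 fell, with a median of 0.05, and EHMT2 and DAXX were not analysed here. At the same thresholds 50.1% of all genes rose and 25.6% fell, with a median of 0.16, so the share of these genes that rose, 37.5%, was under the background and the share that fell, 25%, was near it. The 4 genes past 0.5 in size were the following. The de novo DNA methyltransferases DNMT3B and DNMT3A rose by 0.73 and 0.60, ATF7IP2, a relative of the SETDB1 partner ATF7IP, rose by 0.69, and UHRF1, which guides the maintenance methyltransferase, fell by 0.65. DNMT1, the maintenance methyltransferase (0.10, adjusted p = 0.062), and ATF7IP (-0.02, adjusted p = 0.67) did not pass. Whether any of these changes has a part in the levels of the cluster was not tested.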

How the data were processed

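RNA of Huh7 cells was compared between sgNS (2 libraries) and METTL16 KO (2 libraries). The authors used Cutadapt for trimming, STAR for mapping (GRCh38) and RSEM for quantification, and deposited 1 table of TPM per gene symbol. Versions and annotation are not given in the sources used here. RPKM is the unit named in the methods, but all libraries have the fixed sum that defines TPM, so they were treated as TPM, which keeps no depth. From these, log2(TPM + 0.1) of 11971 genes (mean of at least 1 TPM over the libraries) was fitted by limma 3.58.1 in R 4.3.3 (lmFit, eBayes with a mean-variance trend, two-sided, no block), with Benjamini-Hochberg adjustment over all of them. An exact permutation test of 2 against 2 libraries cannot go below p = 0.33. The fit was also run on simulated data in which few genes changed, each by more than any gene of the cluster. Its outcome does not show how many of the calls made here are right.

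The genes of the cluster and all lists were chosen with earlier results of these data known. Values in every library are given for the 12 largest rises, the falls that passed, genes with a mean under 1 TPM, pairs of at least 85% protein identity, and some others chosen after their values were seen. Positions, fingers and domains come from GENCODE release 44 (coding sequences of the canonical transcripts, translated and searched by pattern, in place of the RefSeq proteins first planned), and promoters from RefSeq (GRCh38.p14, first window where a gene had several). Of 18806 symbols, 18612 matched the annotation. Other pseudocounts, filters, scalings, a replicate block, limma without trend and leaving out each library were tried as alternatives. Python 3.11.15 was used for the other steps.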

Additional observations from a re-analysis of the deposited data

How the results depend on the processing

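Depth and other limits could not be read from TPM, and with 2 libraries a group the spread rests on the variance shared across genes. A fit without 1 library leaves 1 in its group, so the spread then comes from the other group and that shared variance. Of the 44 genes tested, 33 were called higher, and that count ranged from 26 to 34 over all settings. Over all genes, the share called higher ranged from 36.4% after median-ratio scaling to 52.1% with a minimum mean of 5 TPM. With all genes above 0 in at least 1 library, 31 of the 44 were called, beside 39.8% of all genes. ZNF154 and ZNF471 made that count 33. The 25 genes higher under all 3 scalings (background 34.8%) were called higher in every setting that tested them. The share of all genes called in every setting was not counted, so the 25 cannot be compared with a background there. The number called lower was 2, and it was 0 with all genes above 0 in at least 1 library and 1 with a minimum mean of 5 TPM or without trend. It was 4 after median-ratio scaling (36.6% of all genes) and 5 after quantile normalization (35.5% of all genes). These calls were not all kept when 1 library was left out. The number higher past the fold rule was 1, and it was 2 with all genes above 0, where 1390 of 16350 genes passed. With a 1.5-fold threshold it was 17. The share of all genes at that threshold was not counted, so the 17 cannot be compared with the background. The median log2 fold change of 0.41 became 0.45 with a minimum mean of 5 TPM, 0.25 after median-ratio scaling, 0.23 after quantile normalization and 0.40 to 0.47 when 1 library was left out. Both scalings bring the median over all genes close to 0, from 0.16 as deposited. The sign changed after median-ratio scaling (first value) and after quantile normalization (second value) for ZFP28 (-0.10, -0.47), ZNF418 (-0.080, -0.44), ZNF552 (-0.11, -0.12), ZNF671 (-0.027, -0.068) and ZSCAN22 (-0.013, -0.024). On leaving out 1 library, the log2 fold change ran from -0.16 to 0.26 for ZFP28, from -0.0063 to 0.15 for ZNF418, from -0.015 to 0.13 for ZNF552, from -0.50 to -0.044 for ZNF497 and from -0.046 to 0.040 for ZNF417. The cause of changes other than scaling or fewer libraries and genes was not tested. The sgNS and METTL16 KO libraries share replicate numbers, but the correlation of deviations between same-numbered libraries was -0.0445, and the numbers are shared names only. With a replicate block, 33 genes of the cluster were called higher and 2 lower, the median stayed at 0.41, and 6048 genes rose and 3112 fell in all, beside 5999 and 3065 without it.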
